A study of Mus musculus with 36 samples.

Results

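SAHA was set directly against CI-994 in the hippocampus (HIP) of mice given either histone deacetylase (HDAC) inhibitor every day. The comparison rests on 6 of the 36 arrays of the series, chosen by their labels for region and treatment alone: 3 arrays of HIP from SAHA-treated mice and 3 from CI-994-treated mice. The series also holds vehicle and Cpd-60, and the same pools of mice in prefrontal cortex (PFC) and nucleus accumbens (NAc). All mice were male, of the C57BL/6J strain by their labels, and 11 weeks old. SAHA was injected intraperitoneally at 25 mg/kg and CI-994 at 10 mg/kg, both in a volume of 5 mL/kg. There were 10 daily injections, and tissue was taken 1 h after the last one. Vehicle was injected in a larger volume than SAHA and CI-994. A difference of either drug from vehicle thus cannot be told apart from a difference between injection volumes. Each array held RNA pooled from 2 mice, so each drug group stands for 3 pools, numbered replicates 1 to 3. Drug and dose differed together, and neither drug had a second dose, so a difference between the groups cannot be told apart from a difference between doses. The mice came from more than one supplier, and the labels do not tie a pool to a supplier.

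HDACs remove acetyl groups from lysines on histone tails and on other proteins. Class I HDACs sit in nuclear corepressor complexes such as Sin3, NuRD and CoREST, and their loss or inhibition raises histone acetylation at many genes at once. SAHA (vorinostat) is a hydroxamate that binds the catalytic zinc of class I HDACs and of HDAC6, while CI-994 (tacedinaline) is a benzamide that is selective for class I enzymes and binds slowly. The hippocampus, made of the pyramidal cells of the CA fields, the granule cells of the dentate gyrus, interneurons and glia, serves memory and mood, and HDAC inhibitors have been studied there for both. The question for these arrays was which transcripts the hydroxamate and the benzamide left at different levels after chronic dosing.

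The arrays were uneven before normalization. The 95th percentile of raw intensity was 665.2, 437.7 and 452.0 in SAHA replicates 1, 2 and 3, and 593.6, 850.1 and 816.4 in CI-994 replicates 1, 2 and 3. SAHA replicates 2 and 3 were thus the dimmest of the 12 HIP arrays, while the other 10 ranged from 593.6 to 850.1. The share of probes detected at a p of at most 0.01 was 32.1% to 34.3% on the SAHA arrays and 37.3% to 39.5% on the CI-994 arrays, with no overlap. CI-994 replicate 2 stood apart in another way. Across tested probes its log2 values correlated at 0.981 and 0.977 with the other CI-994 arrays, against 0.990 between those 2 and 0.989 to 0.992 among the SAHA arrays. The part of brightness and of this array in the results was not tested, and the counts are given below with and without each of them. CI-994 replicate 1 and SAHA replicate 1 were on the first BeadChip and replicates 2 and 3 of both drugs on the second. Without both dim arrays the SAHA pool left thus lies on the first BeadChip and most CI-994 pools on the second. Vehicle replicates 1 and 2 were on the first BeadChip and replicate 3 on the second. Each drug's difference from vehicle thus also holds a part of any difference between BeadChips. Of 24 markers of hippocampal neurons, 19 had a tested probe, and all 19 were detected at 0.01 on all 6 arrays, among them Prox1 of the granule cells and Fibcd1 and Wfs1 of CA1.

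No transcript separated SAHA from CI-994 after correction for the number of probes. limma tested 23275 probes and called 0 of them (0%) at an adjusted p under 0.05, the smallest adjusted p being 0.242, while 1909 probes (8.20%) had an unadjusted p under 0.05. With an additional minimum of 1.2-fold, 210 probes were higher in SAHA (0.902%) and 287 lower (1.23%), and these are the calls used below. They rest on unadjusted p-values and are a ranking, not a set of established differences. Tukey's HSD after an analysis of variance, the test that the methods name, gave 508 probes at an unadjusted p under 0.05, of which 28 were higher and 65 lower by the same fold, and 0 past adjustment. In 4.99% of tested probes all 3 SAHA pools lay above all 3 CI-994 pools, and in 7.81% they lay below. The median difference over all probes was -0.01 on the log2 scale, as quantile normalization makes it. With each array set to the same median instead, that difference was -0.18, and 0 probes were called higher and 7161 lower, so every direction below is relative to the bulk of probes. The 95% interval reached a median of 0.18 log2 units to either side of the estimate, and for 83.9% of probes less than the log2 of 1.2. A single pair of drugs was compared.

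**Figure D1:**
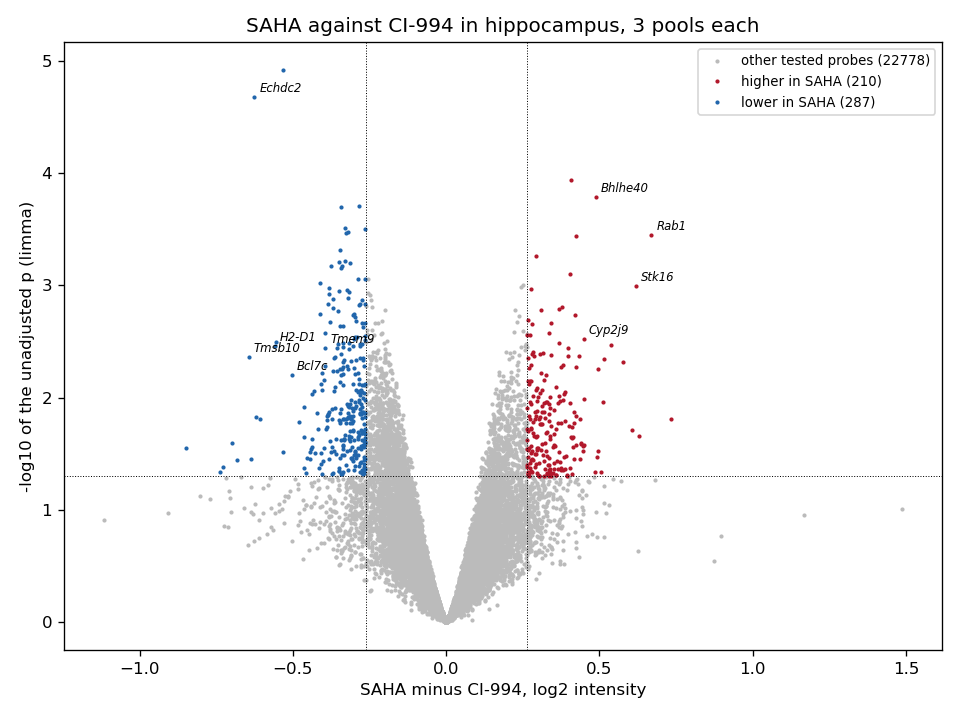
Each point is 1 of the 23275 tested probes in HIP, placed by its SAHA minus CI-994 difference in log2 intensity (x axis) and by the -log10 of its unadjusted limma p (y axis). Dotted lines mark a p of 0.05 and 1.2-fold; 210 probes pass both on the SAHA side and 287 on the CI-994 side, and Echdc2, Bhlhe40 and Rab1 combine a large difference with a small p.

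The 10 named genes with the largest differences on the SAHA side included regulators of membrane traffic, chromatin and transcription. Rab1 is the small GTPase of transport from the endoplasmic reticulum to the Golgi. Its log2 intensity was 7.96, 8.44 and 8.51 in SAHA replicates 1 to 3 and 7.61, 7.52 and 7.78 in the CI-994 pools. Every SAHA pool was above every CI-994 pool, the 2 dim SAHA arrays being the highest, and the difference was 0.67 ± 0.14 (SE), a 1.59-fold difference, with an unadjusted p of 0.000353. The vehicle pools, at 7.39 to 7.63, lay with CI-994. The second, dimmer Rab1 probe differed by -0.08 (unadjusted p = 0.319), so the difference rests on 1 of 2 probes. Without both dim SAHA arrays the Rab1 difference was 0.32 (unadjusted p = 0.049), and without CI-994 replicate 2 it was 0.61.

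Bhlhe40 (listed on the array as Bhlhb2) encodes a basic helix-loop-helix repressor of the clock that is induced by neuronal activity and by hypoxia. It measured 9.47, 9.31 and 9.29 in the SAHA pools and 8.87, 8.66 and 9.08 in the CI-994 pools. The groups did not overlap, and the vehicle pools (9.14 to 9.24) lay between them. SAHA minus CI-994 was 0.49 ± 0.09, or 1.40-fold, with an unadjusted p of 0.000163, and -0.04 under median scaling. Against vehicle the fit gave -0.33 for CI-994 and 0.16 for SAHA. It kept its call without CI-994 replicate 2 (0.39), without both dim SAHA arrays (0.60) and under Tukey's HSD.

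Stk16, a membrane-bound serine/threonine kinase of the Golgi, measured 9.24, 9.46 and 9.52 under SAHA and 8.96, 8.42 and 8.98 under CI-994. All SAHA pools were the higher ones, and CI-994 replicate 2 was the lowest of the 6. The difference was 0.62 ± 0.14 (unadjusted p = 0.00101) and 0.43 without CI-994 replicate 2. It was 0.45 without both dim SAHA arrays and 0.10 under median scaling, and Stk16 lost its call in both. The second, dimmer Stk16 probe, not detected at 0.01 on all 6 arrays, differed by 0.13 and was not called. Tuba4a, an alpha-tubulin gene that overlaps Stk16 in the RefSeq annotation of GRCm38.p6, differed by 0.49 ± 0.20, by 0.23 without CI-994 replicate 2, where it lost its call, and by -0.07 under median scaling. Probe sequences were not used here, so whether the Stk16 and Tuba4a probes read separate transcripts is uncertain.

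Cbx6, a Polycomb chromobox protein that binds methylated histone H3, measured 10.02, 10.35 and 10.36 under SAHA and 9.75, 9.07 and 10.01 under CI-994. The groups were apart only narrowly, by the gap between SAHA replicate 1 and CI-994 replicate 3. Gng2, a gamma subunit of heterotrimeric G proteins, was spread in the same way, at 9.05, 9.39 and 9.57 against 9.001, 8.24 and 8.96. Cbx6 differed by 0.63 ± 0.24 and Gng2 by 0.61 ± 0.23, and both lost their call without CI-994 replicate 2 (0.36 each). The second Gng2 probe, also detected on all 6 arrays, differed by -0.06 (unadjusted p = 0.641). Cyp2j9, a cytochrome P450 of the arachidonate-metabolizing family, was tighter, at 8.57, 8.58 and 8.65 under SAHA and 8.26, 7.90 and 8.30 under CI-994. Its difference was 0.45 ± 0.12 (unadjusted p = 0.00297), 0.32 without CI-994 replicate 2, where it kept its call, and -0.04 under median scaling. It lost its call without both dim SAHA arrays (unadjusted p = 0.0543) and under Tukey's HSD. The other 3 genes were Bop1, of ribosome biogenesis (0.49 ± 0.22), Inpp5f, an inositol phosphatase of endosomes (0.45 ± 0.15, but -0.10 under median scaling), and Rnf112, a RING finger protein of brain (0.45 ± 0.18), and each lost its call without that array.

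On the CI-994 side, Echdc2 had the smallest p of the genes named by rule. It encodes a mitochondrial protein of the enoyl-CoA hydratase family. It measured 8.27, 8.28 and 8.36 in the SAHA pools and 8.89, 9.16 and 8.73 in the CI-994 pools. The SAHA pools lay at or just below the vehicle pools (8.33 to 8.45), and all 3 CI-994 pools were above both. SAHA minus CI-994 was -0.63 ± 0.09, or 1.54-fold lower, with an unadjusted p of 2.08e-05 and an adjusted p of 0.242. A second probe was also called, at -0.28 ± 0.09, while the third, the dimmest, differed by -0.04. Echdc2 kept its call in each alternative that gave a test, with a difference between -0.72 and -0.51 when arrays were left out in turn.

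Apoc1, an apolipoprotein of lipid particles made in brain mainly by glia, had the smallest p of all and is named after its values were seen. It was detected at 0.01 on 1 of 3 SAHA arrays and on 3 of 3 CI-994 arrays, which keeps it out of the rule. Its level was 6.72, 6.83 and 6.64 under SAHA and 7.28, 7.28 and 7.24 under CI-994, with vehicle at 6.89, 6.95 and 6.72. The CI-994 pools stood above the SAHA and vehicle pools, which overlapped. The difference was -0.53 ± 0.08 (unadjusted p = 1.21e-05), -0.53 without CI-994 replicate 2 and -0.55 without both dim SAHA arrays. Near the detection limit a difference in intensity understates a difference in level.

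Tmsb10, an actin monomer-binding thymosin, measured 10.61, 11.04 and 10.82 under SAHA and 11.43, 11.83 and 11.14 under CI-994. The groups were apart, with CI-994 replicate 2 the highest. The difference was -0.64 ± 0.18 (unadjusted p = 0.00433) and -0.46 without that pool. H2-D1, a classical MHC class I heavy chain, measured 7.78, 7.68 and 7.75 under SAHA and 8.18, 8.68 and 8.03 under CI-994. Both of its brighter probes were called, at -0.56 each, and the third, dim probe differed by 0.09. Class I genes are close in sequence, so H2-D1 probes may also read its relatives.

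The other 7 genes on the CI-994 side differed by -0.50 to -0.39. Bcl7c, a subunit of SWI/SNF chromatin remodelers, measured 7.29, 7.52 and 7.46 under SAHA and 8.04, 8.04 and 7.70 under CI-994. Against vehicle, Bcl7c was at -0.44 for SAHA and 0.07 for CI-994. Tnk2, a nonreceptor tyrosine kinase, was similar, with -0.42 for SAHA and 0.05 for CI-994 against vehicle, and it rested largely on 1 CI-994 pool, its difference moving from -0.46 to -0.26 without CI-994 replicate 2. The rest were Ppm1g, a protein phosphatase (-0.44), Podxl2, a sialomucin (-0.44), rp9 (-0.40), Tmem9 of the endolysosomal membrane (-0.39) and Gga1, an adaptor of Golgi-to-lysosome sorting (-0.39). Of these, Podxl2 (-0.33), rp9 (-0.26) and Gga1 (-0.21) lost their call without CI-994 replicate 2, as Tnk2 did. Adjusted p-values of the 20 genes ranged from 0.242 to 0.607.

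**Figure D2:**
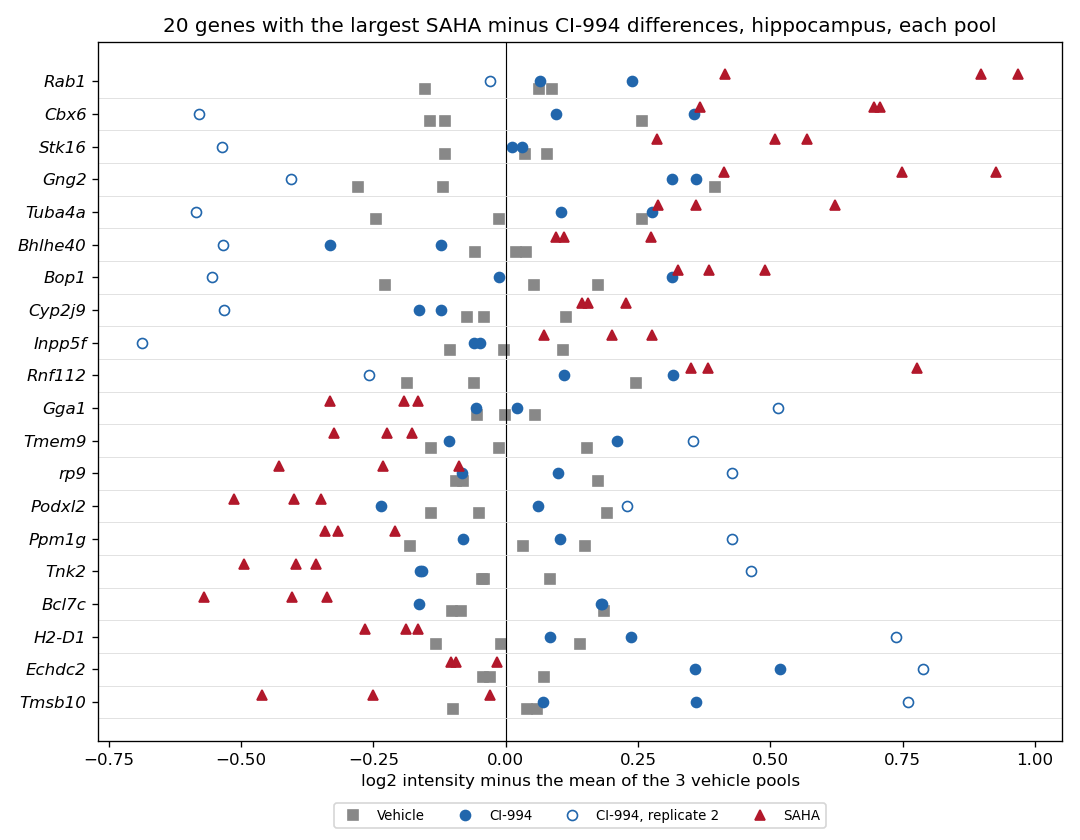
Each row is 1 of the 20 named genes in HIP and each symbol 1 pool of 2 mice, as log2 intensity minus the mean of the 3 vehicle pools (x axis); the open circle is CI-994 replicate 2. That pool is the lowest CI-994 pool in 10 of the 10 genes higher in SAHA and the highest in 9 of the 10 genes lower in SAHA, and all CI-994 pools of Echdc2 lie above its vehicle pools.

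The same vehicle pools enter both drug estimates, so the values against vehicle are given side by side without a test. Those values also carry the differences in BeadChip placement and injection volume given above. In 7 of the 10 genes higher in SAHA and 7 of the 10 lower, the SAHA estimate was farther from vehicle than the CI-994 estimate. Rab1 (0.76 for SAHA and 0.09 for CI-994), Gng2 (0.70 and 0.09) and Bcl7c were of that kind. Echdc2 (-0.07 for SAHA and 0.55 for CI-994), Tmsb10 (-0.25 and 0.40) and Bhlhe40 were of the other kind.

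The drug targets and the genes usually watched under HDAC inhibitors gave few calls. Over 15814 genes, taking 1 probe per gene, 1.01% were called higher in SAHA and 1.22% lower, with a median difference of -0.002, and gene lists were read against these shares. Of 17 tested class I HDAC and corepressor genes 1 was called, Rbbp7, a histone-binding subunit of Sin3 and NuRD. It measured 9.46, 9.81 and 9.94 under SAHA and 9.41, 9.34 and 9.47 under CI-994, with SAHA replicate 1 inside the CI-994 range. Its difference was 0.33 ± 0.14, it was called on 3 of its 4 probes, without both dim SAHA arrays it was 0.06, and under median scaling it was -0.22. Hdac2 differed by 0.26 (95% interval -0.09 to 0.60) and Hdac3 by 0.08 (-0.14 to 0.30). None of the 7 class II and IV HDAC genes was called, although Hdac7 (-0.24, unadjusted p = 0.0149) and Hdac10 (0.20, 0.0163) were close. Neither Hdac7 nor Hdac10 was detected at 0.01 on all 6 arrays.

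Cdkn1a, the p21 cell cycle inhibitor that HDAC inhibitors induce in dividing cells, differed by 0.07 with a wide interval of -0.75 to 0.89. H1f0, the replacement linker histone induced by the same drugs, differed by 0.03 (-0.26 to 0.33). Of 10 cell cycle inhibitor and Gadd45 genes and 12 histone genes, 0 were called by limma at an unadjusted p under 0.05 and 1.2-fold. Txnip (0.22, unadjusted p = 0.0337) and Cdkn1b (0.20, 0.00793) were the members with p-values under 0.05 in the first list, and H2az1 (-0.22, 0.00766) in the second, and all 3 were short of 1.2-fold. Cdkn1b was not detected at 0.01 on all 6 arrays. The 6 metallothionein and zinc transporter genes had no call either.

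Most activity-dependent genes had intervals that included 0, 1 h after the last injection, with Egr2 (0.22, unadjusted p = 0.0173, under 1.2-fold) and Jund the exceptions among the immediate early genes. Egr2 was not detected at 0.01 on all 6 arrays. Fos differed by 0.004 (95% interval -0.30 to 0.31), Arc by -0.15 (-0.54 to 0.25), Egr1 by 0.26 (-0.05 to 0.56) and Bdnf by 0.02 (-0.16 to 0.19). Of 17 tested immediate early genes 1 was called, Jund (listed as Jund1), a constitutive AP-1 subunit. It measured 6.86, 6.81 and 6.61 under SAHA, where 1 of 3 arrays detected it at 0.01, and 7.19, 7.86 and 7.09 under CI-994. Jund was lower in every SAHA pool, by 0.62 ± 0.22 on the log2 scale, and by 0.38 (unadjusted p = 0.0703) without CI-994 replicate 2. None of the 21 glucocorticoid-induced genes was called, and Fkbp5, a sensitive readout of corticosterone, differed by -0.01 (-0.28 to 0.26).

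Among 14 clock genes 2 were called, both higher in SAHA: Bhlhe40, described above, and Tef, a PAR-domain bZIP output factor of the clock. Tef measured 9.69, 9.60 and 9.44 under SAHA and 9.19, 9.06 and 9.35 under CI-994. The groups were apart, CI-994 lying with vehicle (0.01), and the difference was 0.38 ± 0.09 (unadjusted p = 0.00155), 0.31 without CI-994 replicate 2, 0.49 without both dim SAHA arrays and -0.17 under median scaling. Per2 (0.08), Dbp (-0.02) and Nr1d1 (-0.06) were not called, and Per1, a repressor of the same loop, was at -0.27 (unadjusted p = 0.164). The median of the list was 0.04. The same genes were called without CI-994 replicate 2, and 4 were called without both dim SAHA arrays.

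Cytosolic ribosomal protein genes had the most calls of the lists by number, though not by share, and all were in one direction. Of 55 tested, 7 were lower in SAHA (Rpl31, Rpl34, Rplp1, Rps12, Rps13, Rps16 and Rps29) and 0 higher, 41 of 55 differences were negative, and the median was -0.11. Rplp1, a stalk protein of the large subunit, measured 13.24, 13.22 and 13.24 under SAHA and 13.55, 13.66 and 13.53 under CI-994. The groups did not overlap, and the difference was -0.35 ± 0.08 (unadjusted p = 0.00111), called in each alternative that gave a test. Rpl31 differed by -0.36 ± 0.10, and its dimmer probes, not called, by 0.08 and -0.07. The mean level over the 55 genes was 11.15, 11.17 and 11.12 in the SAHA pools and 11.26, 11.31 and 11.17 in the CI-994 pools, with the vehicle pools at 11.17. On this mean SAHA replicate 2 and CI-994 replicate 3 changed places, so the groups overlapped, and the CI-994 median against vehicle was 0.09 while that of SAHA was -0.04.

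These genes are bright, so the same numbers were taken for all genes in their range of brightness. Among 701 genes with a mean log2 intensity between the quartiles of the list (10.44 and 12.3), the median difference was 0.002. Of these genes, 48.9% had a negative difference, and 2.43% were called higher in SAHA and 2.57% lower. Without CI-994 replicate 2 the list kept a median of -0.08 but had 2 called genes in place of 7, and without both dim SAHA arrays it had 7 lower and 1 higher. Over 24 alternatives its median ran from -0.15 to -0.06 with 1 to 12 genes lower, and under median scaling, where every list has a negative median, it was -0.58.

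Nuclear genes of oxidative phosphorylation were spread likewise. Of 67 tested, 4 were lower in SAHA and 0 higher, 47 differences were negative, and the median was -0.08, against 0.01 among 935 genes of the same brightness. Of those 935 genes, 2.03% were called higher in SAHA and 2.57% lower, and 46.8% had a negative difference. The 4 called genes of the list were Ndufs8 (-0.29 ± 0.08), Ndufb6 (-0.35 ± 0.11) and Ndufa11 (-0.31 ± 0.10) of complex I and Uqcrh (-0.29 ± 0.07) of complex III. Uqcrh measured 11.98, 11.94 and 12.04 under SAHA and 12.28, 12.27 and 12.27 under CI-994. The CI-994 pools were almost level, vehicle (12.11 to 12.27) reached from near one group to the other, and the unadjusted p was 0.00088. The mean level of the list was 10.48, 10.48 and 10.44 in the SAHA pools and 10.60, 10.58 and 10.47 in the CI-994 pools, the third CI-994 pool lying among the SAHA pools. Without CI-994 replicate 2 the list had 3 called genes, and without both dim SAHA arrays 8 lower and 1 higher.

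Synaptic lists had isolated calls. Of 33 synaptic vesicle genes Sv2b, a vesicle glycoprotein, was higher in SAHA (0.33 ± 0.12, 0.21 and not called without CI-994 replicate 2, and -0.22 under median scaling), and of 34 glutamate receptor and scaffold genes Gria3, an AMPA receptor subunit, was higher (0.37 ± 0.16 with overlapping groups, 0.19 and not called without CI-994 replicate 2, and -0.16 under median scaling). Slc17a7, the vesicular glutamate transporter VGLUT1, was at -0.64 (95% interval -1.31 to 0.04) and Grin2b, an NMDA receptor subunit, at -0.44 (-0.90 to 0.02), and neither was called. None of 17 GABA genes was called, although the 3 SAHA pools were above the 3 CI-994 pools for Gad1, which makes GABA (0.16, unadjusted p = 0.0370). Calm2 and Calm3, which encode the same calmodulin protein, were both higher in SAHA, by 0.28 ± 0.09 and 0.27 ± 0.11, and at -0.24 and -0.22 under median scaling. Without CI-994 replicate 2 they were at 0.23 and 0.14, and both lost their call, as they did without both dim SAHA arrays and under Tukey's HSD. Calm2 measured 11.95, 11.87 and 12.07 under SAHA and 11.79, 11.59 and 11.68 under CI-994. The dimmer Calm2 probes differed by 0.29 and -0.13, and neither was called. Camk1, a calmodulin-dependent kinase, was lower by 0.29 ± 0.12 with groups that overlapped, and by 0.14 without CI-994 replicate 2, where it lost its call.

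Of 30 Rab GTPases, Rab1 was higher and Rab4a, of endosomal recycling, lower (-0.30 ± 0.13), and of 34 cytoskeletal genes the calls were Tuba4a and Tmsb10. Of 36 G protein and cyclic nucleotide genes Gng2 was called, and of 26 proteasome subunits Psma5 (0.26 ± 0.10, but -0.26 under median scaling). Chaperones (32 tested), cholesterol genes (17) and neurotrophin and growth factor genes (18) had 0 calls at an unadjusted p under 0.05 and 1.2-fold by limma. Over all 641 genes of the lists 17 were called higher and 17 lower (2.65% each), beside 1.01% and 1.22% over all genes and 2.43% and 2.57% over genes as bright as the ribosomal list. The other lists had lower mean levels than the ribosomal list. These last shares are thus not matched in brightness to the 641 genes.

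**Figure D3:**
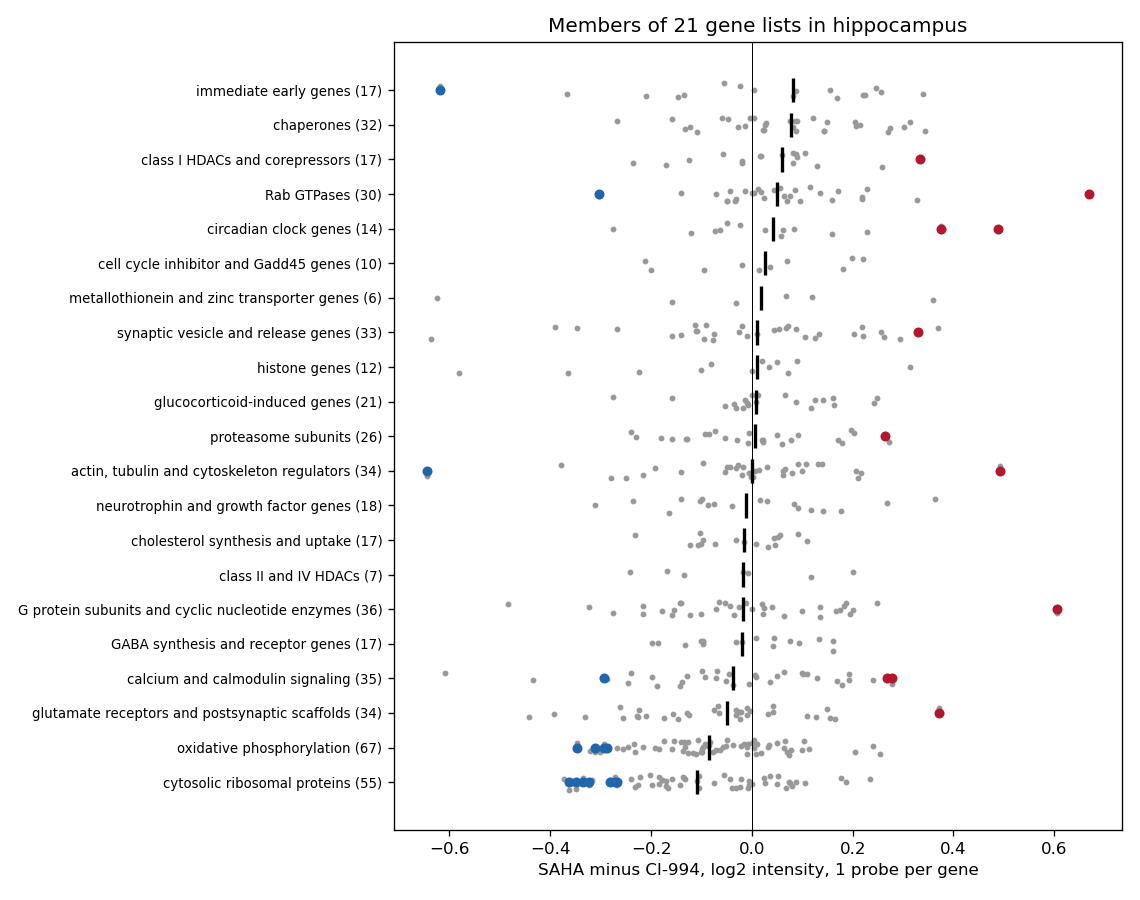
Each row is 1 of the 21 lists of genes by function (marker lists not drawn) with the number of tested genes, each dot a gene placed by its SAHA minus CI-994 difference in log2 intensity in HIP (x axis), and the black bar the list's median, which is negative for every list under median scaling; red dots were called higher in SAHA and blue dots lower. The medians lie between -0.11, for cytosolic ribosomal proteins with 7 blue dots, and 0.08, for immediate early genes.

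Another list took the genes that the paper names from its arrays, which it chose mainly for Cpd-60 against vehicle. For 11 of these 12 genes the 95% interval of the difference included 0, and all 9 genes with a positive difference had a negative one under median scaling. Sgk1, a kinase induced by glucocorticoids, measured 10.38, 10.07 and 10.12 under SAHA and 9.99, 10.10 and 10.07 under CI-994, a difference of 0.14 (-0.25 to 0.53). Tsc22d3 (GILZ) differed by 0.25 (-0.09 to 0.59), with 1 of its 2 probes called at 0.36, and Etnppl (listed as Agxt2l1), a phospholyase of astrocytes, by 0.13 (-0.21 to 0.46). Sult1a1 was higher in every SAHA pool, by less than 1.2-fold (0.16, unadjusted p = 0.0507), and Usp54 differed by -0.01 (-0.26 to 0.25). The exception was Qdpr, the dihydropteridine reductase that regenerates tetrahydrobiopterin and is high in oligodendrocytes.

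Qdpr measured 9.86, 10.14 and 10.18 under SAHA and 10.34, 10.59 and 10.25 under CI-994. Every SAHA pool was below every CI-994 pool and below the vehicle pools (10.36 to 10.44), and the difference was -0.34 ± 0.10 (unadjusted p = 0.00476). It was -0.24 without CI-994 replicate 2, where it lost its call, as it did under Tukey's HSD, and -0.54 without both dim SAHA arrays. Of 14 oligodendrocyte markers Qdpr was the single call, the list median was -0.02, and Mog, a myelin glycoprotein, was at -0.01 ± 0.09. The mean level of the oligodendrocyte markers ranged from 10.08 to 10.23 in SAHA and from 10.14 to 10.29 in CI-994.

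Markers of the other cell types that a dissected HIP can hold gave few calls. In bulk tissue, fewer cells of a type and less RNA per cell cannot be told apart. Among the microglia markers Fcrls was higher in SAHA (0.45 ± 0.18, and -0.08 under median scaling), while Cx3cr1 was at -0.26 (unadjusted p = 0.0573) and the C1q genes were also below 0, and the mean level of the list ranged from 7.83 to 7.88 in SAHA and from 7.76 to 7.92 in CI-994. Fcrls lost its call without CI-994 replicate 2 (0.29) and without both dim SAHA arrays (0.31). Slc2a1, the glucose transporter of brain endothelium, was the call among 11 endothelial markers (0.41 ± 0.16, 0.23 and not called without CI-994 replicate 2, and -0.11 under median scaling), whose mean level was 7.78 to 7.82 in SAHA and 7.65 to 7.81 in CI-994. Ntsr2 was called among 12 astrocyte markers (0.39 ± 0.18) and Cort among 13 interneuron markers (0.35 ± 0.12), both with overlapping groups, negative under median scaling and not called without CI-994 replicate 2 (0.23 and 0.21). None of the 19 hippocampal neuron, 5 thalamus or 9 cortex markers with a tested probe was called.

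Choroid plexus and blood varied most between pools. Ttr, the defining transcript of choroid plexus, differed by 0.87 with an interval of -0.82 to 2.57, and the mean level of the 11 choroid markers ranged from 7.53 to 8.33 in SAHA and from 7.36 to 8.25 in CI-994. That mean level went with the BeadChip. It was 8.33 in SAHA replicate 1 and 8.25 in CI-994 replicate 1, both on the first BeadChip. On the second it was 7.36 to 7.69 in the pools of both drugs. The vehicle pools were at 8.30 and 8.21 on the first and 7.54 on the second. Hbb-b1 measured 11.72, 12.35 and 12.32 under SAHA and 11.73, 11.73 and 11.71 under CI-994. The 2 dim SAHA arrays were the high ones, SAHA replicate 1 was level with CI-994, the vehicle pools were at 12.19 to 12.54, and without the dim arrays the difference of 0.40 ± 0.15 turned to -0.01. Drd1, a dopamine receptor of the striatum, was lower in SAHA by 0.27 ± 0.07, but 0 of 3 SAHA arrays detected it at 0.01. The mean level of the 8 striatum markers was 7.49 to 7.53 in SAHA and 7.36 to 7.62 in CI-994. Their part in the results was not tested.

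Fewer probes were called in the other regions of the same pools of mice. In PFC 64 of 22156 probes were higher in SAHA (0.289%) and 94 lower (0.424%), and in NAc 58 (0.25%) and 25 (0.108%) of 23242, with no adjusted p below 0.555 in PFC or below 1.00 in NAc. The numbers at an unadjusted p under 0.05 were 880 and 319. Whether HIP differed from the mean of both other regions was tested directly on all 36 arrays, with the pool of mice as a random block. Of 19447 probes, 625 had an unadjusted p under 0.05 (3.21%), and 0 (0%) passed adjustment, the smallest adjusted p being 0.995. No probe was thus shown to differ between HIP and the other regions.

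Echdc2 was the clearest gene across regions. SAHA minus CI-994 was -0.41 in PFC (unadjusted p = 0.00166) and -0.28 in NAc (0.0579), the same direction as in HIP. H2-D1 was lower in SAHA in PFC too (-0.45, 0.0221) and was at -0.15 in NAc. Rab1 was at -0.19 in PFC and -0.07 in NAc. Bhlhe40 was at 0.21 in PFC and 0.17 in NAc with p-values of 0.114 and 0.703. Of the 20 genes, 2 had an unadjusted p under 0.05 in PFC and 0 in NAc by limma. Because they were chosen for their difference in HIP, no test between regions is given for them.

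**Figure D4:**
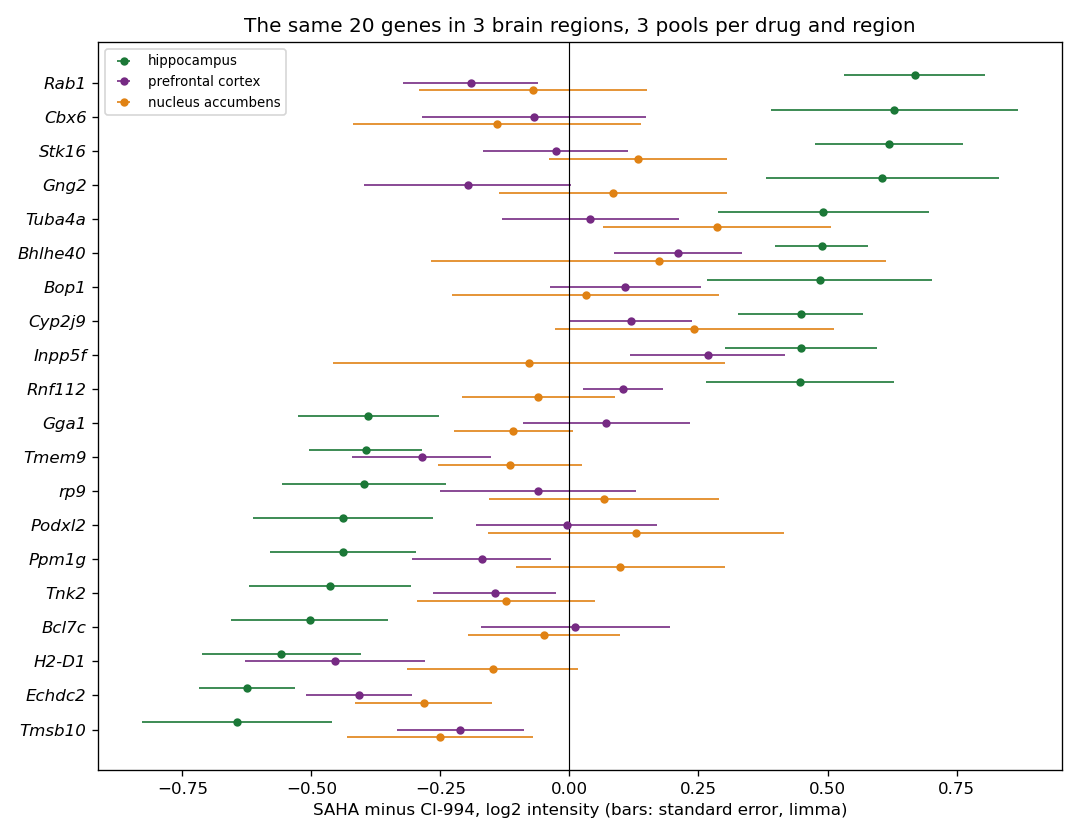
SAHA minus CI-994 in log2 intensity (x axis) for the 20 genes named in HIP, in HIP, PFC and NAc, each from 3 pools per drug; points are limma estimates and bars their standard error. Echdc2 is below 0 in all 3 regions (-0.63, -0.41 and -0.28), whereas Rab1 is at 0.67 in HIP and below 0 in the other 2.

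How many probes were called in HIP depended on single CI-994 arrays. Leaving out CI-994 replicate 2 lowered the calls to 82 higher and 150 lower, of which 50 and 86 were among those called with all arrays. Leaving out CI-994 replicate 3 raised them to 761 and 946, leaving out replicate 1 to 407 and 467, and leaving out SAHA replicate 1 to 342 and 445. Without both dim SAHA arrays, where the remaining SAHA pool is assumed to vary as the other groups do, 386 were higher and 339 lower, and 58 and 77 were among the first calls. Of the 20 named genes, 10 kept their call without CI-994 replicate 2, 7 without both dim SAHA arrays and 4 under Tukey's HSD, and Echdc2, Bhlhe40 and Rab1 were among all of these. On the second BeadChip alone, which held 2 pools of each drug, 12 kept it. Under median scaling the 10 genes on the CI-994 side kept their call and the 10 on the SAHA side lost it.

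**Figure D5:**
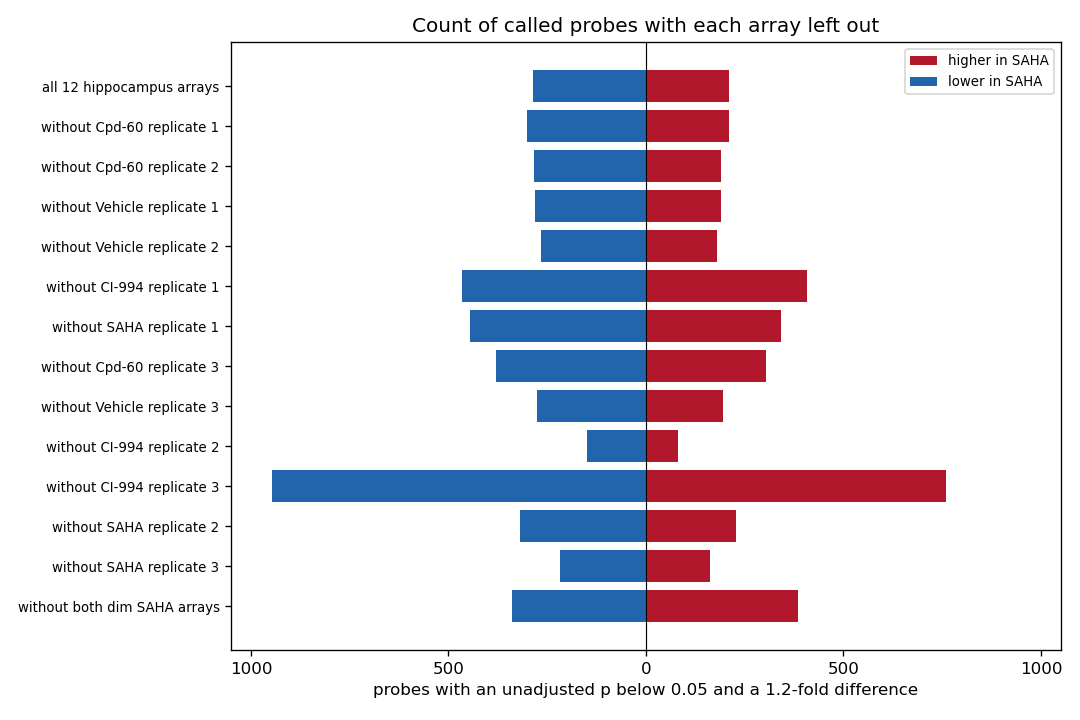
Number of probes with an unadjusted p below 0.05 and at least a 1.2-fold difference in HIP (x axis), higher in SAHA to the right and lower to the left, with all 12 HIP arrays and with each array, or both dim SAHA arrays, left out (rows). The bars are shortest without CI-994 replicate 2 (82 and 150) and longest without CI-994 replicate 3 (761 and 946).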

How the data were processed

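Expression was read on 36 Illumina MouseWG-6 arrays, each with RNA of 1 region from a pool of 2 mice. For 45281 probes the deposited table gives raw intensity, neither background-subtracted nor normalized, and a detection p-value from the authors. The array design's gene symbols were used; 21929 of 30869 matched a current symbol or a single synonym in the RefSeq table of GRCm38.p6.

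In R 4.3.3 with limma 3.58.1 and statmod 1.5.0, all 36 arrays were quantile normalized together, floored at an intensity of 1 and log2 transformed. Quantile normalization gives every array the same spread of values, so the difference in brightness between arrays is removed and a change common to most genes would be too. The methods of the study keep transcripts present in 3 of 3 replicates, read here as a detection p of at most 0.2 on all 3 arrays of at least 1 HIP group. The 12 HIP arrays were fitted with 1 mean per treatment and empirical Bayes moderation, SAHA minus CI-994 was tested, and p-values were adjusted by Benjamini-Hochberg over all tested probes. The labels do not state that pools come from separate cages or days, and p-values measure the spread between pools. The number of arrays limits the precision. No arrays held identical values.

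Named genes were the 10 largest differences in each direction among probes detected at 0.01 on all 6 arrays, called at 1.2-fold and an unadjusted p of 0.05 (no probe passed the adjusted p the rule asks for first), pools of the drugs apart, and a single ordinary gene symbol, then the 12 genes the study names from its arrays, and called members of the 32 gene lists, with some uncalled members given for their known role. Some list members are not reported here by name. Where probes of a gene differ, the brightest tested one stands for it. The members and lists were chosen with earlier results of these data known. On data simulated for the HIP comparison, with 23275 probes, limma recovered 72% of 200 probes changed by 0.5 log2 units and 96% of 200 changed by 1 at an adjusted p under 0.05. The simulated noise was independent between probes and had the same spread in all groups. It held no dim arrays, no outlying array and no BeadChip effect, so these shares need not hold for the real arrays. Alternatives were neqc (offset 16), other normalization sets, median scaling, detection filters, the BeadChip or pool number as a block, array weights, the methods' analysis of variance with Tukey's HSD, and arrays left out. Same-numbered SAHA and CI-994 pools are different mice.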

Additional observations from a re-analysis of the deposited data

How the results depend on the processing

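The count of 0 probes past an adjusted p in HIP was 1 with the pool number as a replicate block and 1240, all lower in SAHA, under median scaling, and 0 in the other alternatives. The calls at an unadjusted p and 1.2-fold, 210 higher and 287 lower, became 770 and 1240 under neqc, 0 and 7161 under median scaling, 377 and 483 with the replicate block, and 28 and 65 with Tukey's HSD. On the second BeadChip alone 351 were higher, with array weights 131, and without both dim SAHA arrays 386. Leaving out each array in turn gave 82 to 761 higher and 150 to 946 lower. Pool numbers do not pair the samples, since same-numbered pools of the drugs are different mice. Correlations of deviations from the group means were 0.25, 0.03 and 0.22 for same-numbered pools, and -0.25 to 0.07 for the other pairs. With 3 pools per drug these values cannot decide whether same-numbered pools share anything. The test between regions had 625 probes past an unadjusted p, against 325 with detection at 0.01, 1938 without a filter, 945 with the BeadChip as a block and 364 to 990 with a pool left out: 990 without SAHA replicate 1, 951 without CI-994 replicate 1 and 364 without CI-994 replicate 2.

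Over 57 named genes and their alternatives, 1207 of 1482 values kept their direction and side of the threshold, 217 lost the call and 21 turned direction with a call on one side. Another 16 values, not called on either side, changed sign. Median scaling turned Tuba4a (-0.069), Bhlhe40 (-0.042), Cyp2j9 (-0.038), Inpp5f (-0.10), Igfbp5 (-0.46), Per2 (-0.43), Calm3 (-0.22), Hbb-b1 (-0.12), Gria3 (-0.16), Slc2a1 (-0.11), Tef (-0.17), Rbbp7 (-0.22), Sv2b (-0.22), Fcrls (-0.083), Ntsr2 (-0.17), Calm2 (-0.24), Cort (-0.061) and Psma5 (-0.26). The first BeadChip alone turned Hbb-b1 (-0.013) and Cort (-0.10), and leaving out both dim SAHA arrays turned Hbb-b1 (-0.0089). The causes were not tested. The dim SAHA arrays limit what can be said of weak probes, of which fewer were detected there.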

Other observations

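Most probes of the mitochondrial genome had a difference opposite in sign to the median of the nuclear genes of oxidative phosphorylation. The array names 19 tested probes for this genome, a group put together after the values were seen. SAHA was above CI-994 for 16 of the 19, and the median difference was 0.08. Of the 19, 3 were called higher and 0 lower, beside 0.902% and 1.23% over all tested probes. No share was taken for probes of the same brightness, and most of the 19 are bright. mtDNA_ND4 differed by 0.41 ± 0.09 (unadjusted p = 0.000785) and mt-Cytb by 0.40 ± 0.11 (0.00357), both with groups that did not overlap. Several probes read the same transcript, and they are not independent. The median was 0.11 with 2 called without CI-994 replicate 2, and it was 0.27 without both dim SAHA arrays. Some of these probes differed between BeadChips: mtDNA_ND2 measured 12.5 in SAHA replicate 1 and 12.48 in CI-994 replicate 1, both on the first BeadChip, and 11.55 to 11.62 in the pools of both drugs on the second.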
